A study of Mus musculus with 9 samples.

Results

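The miR-15, miR-16, miR-195 and miR-497 family was examined in fat depots of obese mice. Members were taken by name as the 5p arms of miR-15a, miR-15b, miR-16, miR-195 and miR-497, which gave 5 of the 1251 miRNAs in the table, and all 5 passed the filter on low values that left 343 miRNAs for testing. Male C57BL/6J mice, 5 to 6 weeks old at the start, received a high fat diet (HFD) with 45% of its energy from fat, 20% from protein and 35% from carbohydrate for 11 weeks and were fasted for 4 h before tissue collection. The depots were epididymal visceral fat (VAT), inguinal subcutaneous fat (SAT) and interscapular brown fat (BAT), with 3 small RNA libraries each, and VAT and SAT are the white adipose tissues (WATs). All 9 libraries come from HFD mice, so every comparison is between depots and none is between diets. Libraries are named by depot and title number (BAT 12, BAT 15, BAT 20, SAT 14, SAT 19, SAT 20, VAT 14, VAT 17 and VAT 20), and values are given in this order. No label says that a number stands for a mouse. The p values measure the spread between these libraries.

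A microRNA (miRNA) is a short RNA that guides a silencing complex to messenger RNAs that pair with its seed, bases 2 to 8 from its 5' end. Members of this family share a seed and hence a large part of their predicted targets, and they are best known for restraining the cell cycle and cell survival through targets such as Ccnd1, Ccne1 and Bcl2. They are transcribed as clusters, miR-15a with a miR-16 copy inside the long noncoding RNA gene Dleu2, miR-15b with a second miR-16 copy inside Smc4, which encodes a condensin subunit, and miR-195a with miR-497.

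The mature sequences (RefSeq, GRCm38.p6) show what the members have in common and where they diverge, with the seed in capitals.
miR-15a-5p: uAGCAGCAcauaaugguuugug
miR-15b-5p: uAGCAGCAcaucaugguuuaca
miR-16-5p: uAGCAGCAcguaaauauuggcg
miR-195a-5p: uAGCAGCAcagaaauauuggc
miR-497-5p: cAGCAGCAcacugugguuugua
All 5 carried the same 7 seed bases, and every difference outside the first base lay 3' of the seed. Aligned from the 5' end without gaps, miR-16-5p and miR-195a-5p were the closest pair, with 2 mismatches in 21 bases, and miR-15a-5p and miR-15b-5p differed at 4 of 22. miR-16-5p and miR-497-5p were the most distant, with 11 mismatches in 22. How many mismatches the mapping of the reads allowed is not given in the sources used here, so an exchange of reads between miR-16-5p and miR-195a-5p was not tested. The row named miR-497-5p was matched to the RefSeq entry for the 5p arm of miR-497a.

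On GRCm38, with GENCODE M21, Mir15a lies at chr14:61632027-61632110 on the minus strand in an intron of Dleu2. Its neighbour Mir16-1 lies 54 bases away at chr14:61631880-61631972 and overlaps an exon of a Dleu2 transcript. Mir15b (chr3:69009772-69009835, plus strand) and Mir16-2 (chr3:69009902-69009996) lie in an intron of Smc4 with 66 bases between them. Mir497 (chr11:70234717-70234800) and Mir195a (chr11:70235042-70235135) lie 241 bases apart on the plus strand, where Mir497 overlaps Mir497b on the opposite strand. Mir16-1 and Mir16-2 yield the same mature miR-16-5p, so what each locus contributed cannot be told apart in these values.

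The values are normalized log2 values. Their lowest, 3.32, is the log2 of 10 and was read as a miRNA without a signal, a meaning the sources used here do not state. Fold changes below are on this scale, on which the added offset understates changes of low miRNAs. Between 240 and 349 miRNAs per library lay above the lowest value. Brown fat miRNAs (5 of 5 in the table) summed to 17.36 to 18.84 in BAT, 15.18 to 15.25 in SAT and 15.68 to 16.28 in VAT, as log2 of the summed values. miR-378a-3p led this sum, with means of 18.18 in BAT, 15.02 in SAT and 15.87 in VAT. miR-193b-3p and miR-455-3p were also higher in BAT, without overlap. The libraries of miR-365-3p overlapped between BAT and either WAT. miR-203-3p went the other way, with means of 8.38 in BAT, 8.90 in SAT and 8.52 in VAT, and overlapped. Several libraries stood apart from their depot in miRNAs of other cell types. The sum of 5 skeletal muscle miRNAs was 17.21 in BAT 15, 18.68 in BAT 20 and 17.21 in VAT 20, against 9.91 to 12.60 in the other 6 libraries. miR-133a-3p led this sum, at 17.20 in BAT 15, 18.67 in BAT 20 and 17.20 in VAT 20, where miR-133b-3p was at 9.59, 10.82 and 9.76. miR-206-3p was at 8.17 in BAT 15 and 8.23 in BAT 20, but at 3.63 in VAT 20. miR-1a-3p was at 7.38 in BAT 20, at 3.83 in VAT 20 and at the lowest value in BAT 15. miR-499-5p was at the lowest value throughout, and miR-1a-3p, miR-133b-3p and miR-206-3p were at the lowest value in SAT. The 5 leukocyte miRNAs summed to 16.77 in SAT 20 against 12.90 to 14.75 elsewhere. This sum was led by miR-150-5p, at 16.72 in SAT 20, and miR-142-5p was at 11.88, but miR-223-3p was lower there than in SAT 14 (9.27) and SAT 19 (9.19). In this list, miR-155-5p was at the lowest value in all libraries, and miR-142-3p and miR-223-3p were also at the lowest value in BAT. The 6 epithelial miRNAs summed to 14.35 in SAT 14 and 10.29 in VAT 20, and all 6 were at the lowest value in BAT. The part of these differences in the results was not tested. Depot comparisons are given with these libraries and, in part, without them. For differences between members, single libraries were left out. Shares of members, arm differences and nearest miRNAs are given for all 9 libraries only.

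miR-16-5p was the most abundant member in every library, and its level followed the order BAT, SAT, VAT. It stood at 11.88, 12.40 and 11.21 in BAT (11.83 ± 0.59, SD, n = 3), at 12.25, 12.89 and 13.18 in SAT (12.78 ± 0.47) and at 13.94, 13.69 and 14.31 in VAT (13.98 ± 0.31). The lowest SAT library lay below the highest BAT library, whereas all VAT libraries lay above all others. Among the miRNAs of a library it ranked 47 to 67 in BAT, 37 to 49 in SAT and 22 to 31 in VAT.

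miR-15a-5p, which shares the Dleu2 transcript with Mir16-1, followed the same order at a much lower level and with little spread. It stood at 7.53, 7.60 and 7.44 in BAT (7.52 ± 0.08), at 8.04, 8.29 and 8.63 in SAT (8.32 ± 0.30) and at 9.80, 9.59 and 9.65 in VAT (9.68 ± 0.11). No library of any depot overlapped another depot. Over all tested miRNAs, the share without overlap was 72.0% for VAT and BAT, 52.5% for SAT and BAT and 39.4% for VAT and SAT.

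miR-15b-5p, from the Smc4 locus, departed from this order and peaked in SAT. It stood at 10.43, 10.80 and 9.78 in BAT (10.34 ± 0.52), at 11.21, 11.44 and 12.20 in SAT (11.62 ± 0.51) and at 10.70, 10.74 and 10.23 in VAT (10.56 ± 0.28). BAT and VAT overlapped, and every SAT library lay above both. SAT 20, the library with high miR-150-5p and miR-142-5p, held the highest SAT value of miR-15b-5p, as well as of miR-15a-5p, miR-16-5p and miR-195a-5p.

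The chromosome 11 pair separated brown from white fat. miR-195a-5p stood at 7.00, 7.60 and 5.57 in BAT (6.72 ± 1.04), at 9.68, 9.76 and 10.00 in SAT (9.81 ± 0.16) and at 10.29, 9.27 and 10.29 in VAT (9.95 ± 0.59). miR-497-5p was at 9.31, 10.41 and 9.43 in BAT (9.72 ± 0.60), at 12.07, 11.94 and 11.94 in SAT (11.98 ± 0.08) and at 12.07, 11.60 and 11.81 in VAT (11.82 ± 0.24). For either miRNA all 6 WAT libraries lay above the 3 BAT libraries, and SAT and VAT overlapped. Of all tested miRNAs, 72.0% had no overlap between VAT and BAT, and 52.5% had none between SAT and BAT, in either direction. Equal values in different libraries arise because libraries share their values at equal ranks: miR-497-5p ranked 54 in SAT 19 and in SAT 20.

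**Figure D1:**
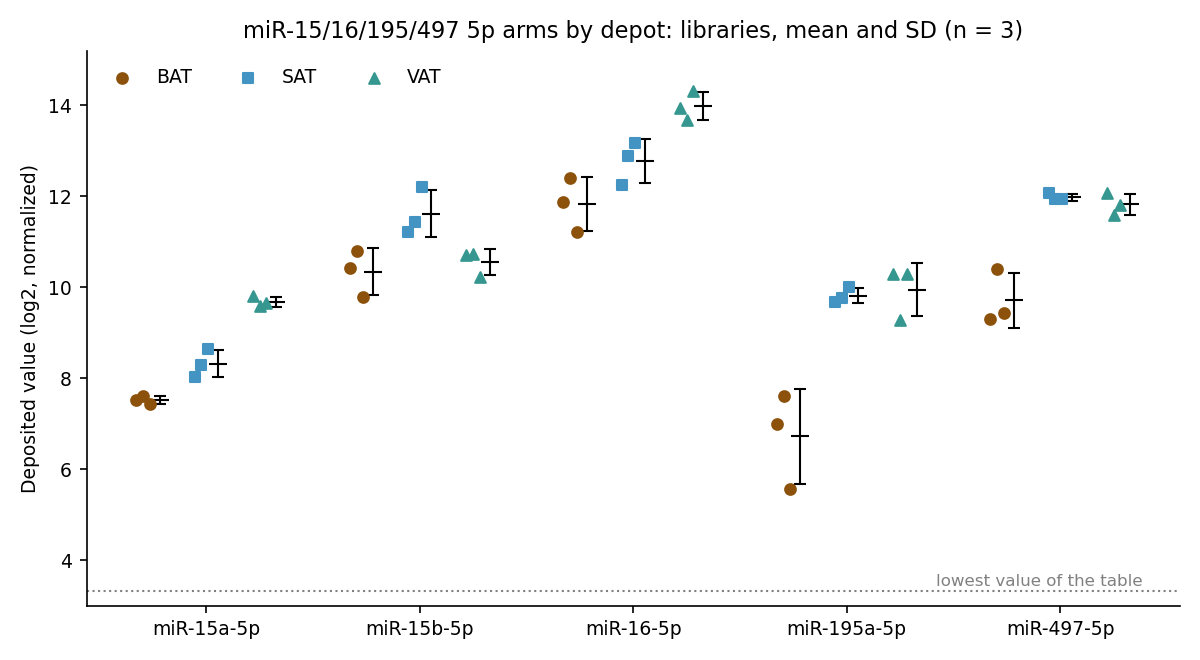
Deposited log2 value of the 5 family members in each library (points, coloured by depot, in library order) with the mean and SD of the 3 libraries; the dotted line is the lowest value of the table. miR-15a-5p and miR-16-5p climb from BAT to VAT, miR-15b-5p is highest in SAT, and miR-195a-5p and miR-497-5p are low in BAT and alike in the WATs.

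The order of the members changed with the depot below miR-16-5p. Sequencing favours some small RNAs over others during ligation, so these orders are of deposited values. In BAT, miR-15b-5p and miR-497-5p followed with overlapping ranges, although miR-15b-5p was higher within each BAT library, by 0.35 to 1.13. Then came miR-15a-5p and miR-195a-5p, which also overlapped. In SAT, miR-497-5p and miR-15b-5p overlapped, and miR-195a-5p and miR-15a-5p came after them without overlap. In VAT, miR-497-5p stood apart in second place, and the libraries of miR-15b-5p, miR-195a-5p and miR-15a-5p overlapped with their neighbours in that order.

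The VAT/BAT comparison gave the most changes in the family. Of the 5 members, 4 were higher in VAT at an adjusted p under 0.05 in limma's moderated test, when 39.4% of all tested miRNAs were higher in VAT by this rule. The median log2 fold change was 2.15 over the members and 0.40 over the 343 miRNAs tested. miR-195a-5p had the largest change, 9.36-fold (log2 fold change 3.23, SE 0.59, 95% interval 1.80 to 4.65, adjusted p = 0.00371), which ranked 58 of 343 by size. miR-15a-5p rose 4.47-fold (2.16, SE 0.20, interval 1.67 to 2.65, adjusted p = 0.000319) and miR-16-5p 4.43-fold (2.15, SE 0.37, interval 1.26 to 3.04, adjusted p = 0.00282). miR-497-5p was 4.31-fold higher (2.11, SE 0.36, interval 1.24 to 2.97, adjusted p = 0.00278). miR-15b-5p gave a log2 fold change of 0.22 (interval -0.59 to 1.03, adjusted p = 0.580), and its sign turned without BAT 20, to -0.06 (adjusted p = 0.845). The libraries of all 4 called members did not overlap between VAT and BAT, which held for 72.0% of all tested miRNAs. Without BAT 15, BAT 20 and VAT 20, the libraries rich in muscle miRNAs, 4 members passed, but BAT then consists of BAT 12 alone, which is assumed to vary like the other depots in a fit that pools the spread.

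In SAT/BAT, 3 of 5 members were higher in SAT, against 22.4% of all tested miRNAs, and the median log2 fold change was 1.28 over the members and 0.26 over all tested. The chromosome 11 pair changed most in this comparison, miR-195a-5p by 8.51-fold (3.09, SE 0.56, interval 1.63 to 4.55, adjusted p = 0.0116) and miR-497-5p by 4.80-fold (2.26, SE 0.33, interval 1.41 to 3.12, adjusted p = 0.00555). miR-15a-5p was 1.74-fold higher (0.80, SE 0.18, interval 0.34 to 1.26, adjusted p = 0.0217). This last call was lost when BAT 12, BAT 15, BAT 20 or SAT 19 was left out, with adjusted p = 0.0688, 0.0521, 0.0589 and 0.0624, and its log2 fold change then lay between 0.76 and 0.84. miR-15b-5p missed the threshold (1.28, SE 0.39, interval 0.26 to 2.30, adjusted p = 0.0553) although its SAT and BAT libraries did not overlap, and without SAT 20 its log2 fold change was 0.99 (adjusted p = 0.128). Of the 5 members, 4 had no overlap between SAT and BAT, as had 52.5% of all tested miRNAs. miR-16-5p had a log2 fold change of 0.95 (interval -0.12 to 2.01, adjusted p = 0.131).

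Between the WATs, only miR-15a-5p of the 5 members passed, when 16% of all tested miRNAs did in either direction. It was 2.57-fold higher in VAT than in SAT (log2 fold change 1.36, SE 0.18, interval 0.90 to 1.82, adjusted p = 0.0235). The call was lost without SAT 19, VAT 14 or VAT 20, with adjusted p = 0.0614, 0.0525 and 0.0663. The VAT minus SAT difference was 1.20 in miR-16-5p (interval 0.42 to 1.98, adjusted p = 0.0592) and -1.06 in miR-15b-5p (interval -1.87 to -0.26, adjusted p = 0.0864). These 3 miRNAs had no overlap between VAT and SAT, as had 39.4% of all tested miRNAs, and miR-15b-5p was lower in VAT where the others were higher. Leaving out SAT 20 gave log2 fold changes of 1.52 (adjusted p = 0.0271) for miR-15a-5p, 1.41 (adjusted p = 0.0685) for miR-16-5p and -0.77 (adjusted p = 0.102) for miR-15b-5p. miR-195a-5p gave 0.14 (interval -0.70 to 0.97, adjusted p = 0.811) and miR-497-5p -0.16 (interval -0.53 to 0.22, adjusted p = 0.513), intervals that leave room for a change of up to about 1 on the log2 scale in the former. The comparisons share libraries and are not independent of each other.

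**Figure D2:**
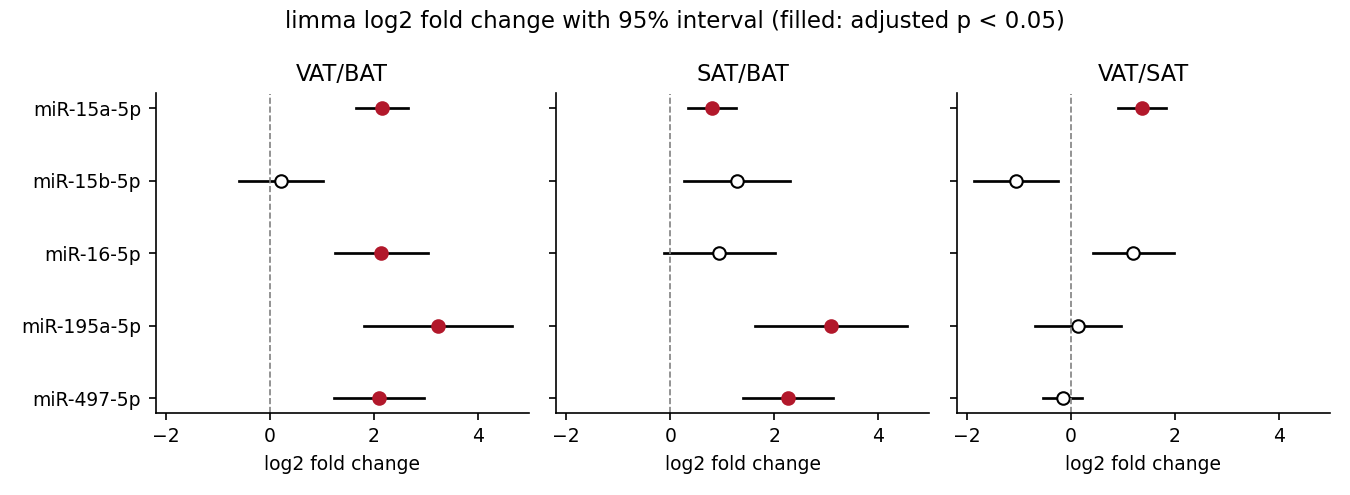
Log2 fold change of each member with its 95% interval from limma in VAT/BAT, SAT/BAT and VAT/SAT (n = 3 libraries per depot); filled points passed an adjusted p of 0.05. In VAT/BAT 4 members passed, in SAT/BAT 3, and in VAT/SAT 1, miR-15a-5p, with miR-15b-5p on the opposite side of 0.

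Because the members share a seed, their values were also summed without the log to describe what the pool of the 5 named members is made of. miR-322-5p has the same seed but lies outside the named members and is not in this pool. The 5 members made up 0.173% to 0.370% of the summed values of a BAT library, 0.523% to 0.799% in SAT and 0.802% to 1.12% in VAT. miR-16-5p supplied 59.7% ± 2.48 of the pool in BAT, 45.3% ± 5.76 in SAT and 69.6% ± 4.58 in VAT (SD, n = 3). miR-15b-5p supplied 21.3% ± 1.35 in BAT and 20.4% ± 3.45 in SAT but 6.74% ± 2.19 in VAT, where the highest library, VAT 17 at 8.80%, lay below the lowest SAT library, SAT 19 at 18.0%. miR-497-5p held its largest share in SAT, 26.5% ± 6.93, against 14.1% ± 3.25 in BAT and 15.7% ± 2.41 in VAT. miR-195a-5p contributed 1.80% ± 0.57 in BAT, 5.80% ± 0.63 in SAT and 4.35% ± 1.05 in VAT, and miR-15a-5p no more than 4.17% in any library. These shares were described and not tested.

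**Figure D3:**
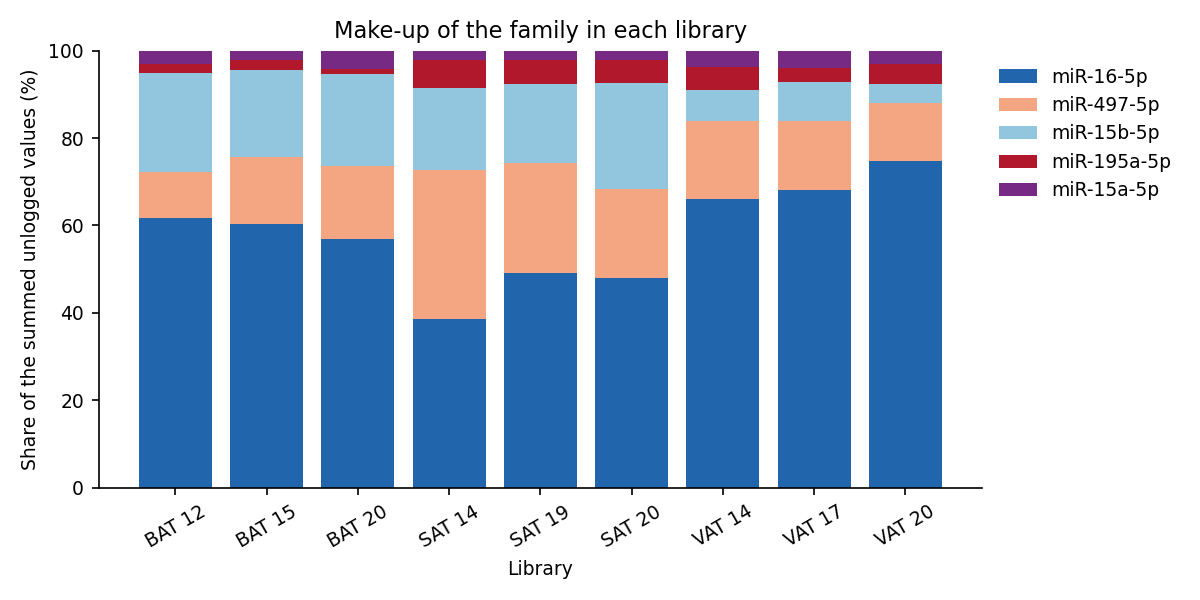
Share of each member in the summed unlogged values of the family, in percent, for each of the 9 libraries. miR-16-5p is the largest block everywhere, from 38.6% in SAT 14 to 74.8% in VAT 20, and the block of miR-15b-5p is below 9% only in the VAT libraries.

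Whether members keep step across depots was tested on differences between 2 members within a library. Scaling the deposited values of a library cannot alter these differences, but an offset or quantile normalization can. An exact permutation test over the 1680 assignments of the 9 libraries to depots was applied to all 10 pairs of members, with 0.00357 as its smallest possible p. The difference varied with depot in 8 pairs after Benjamini-Hochberg adjustment over the 10. The exceptions were miR-15a-5p with miR-16-5p and miR-195a-5p with miR-497-5p. Not passing with 3 libraries per depot does not show that the members of a pair keep step. Pairs of other miRNAs were not tested, so the count is not shown to be particular to this family.

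miR-15a-5p lay below miR-16-5p by a similar margin in every depot, with differences of -4.80 to -3.77 in BAT (mean -4.31 ± 0.51), -4.60 to -4.22 in SAT (-4.45 ± 0.21) and -4.65 to -4.10 in VAT (-4.30 ± 0.31; exact permutation p = 0.846, adjusted p = 0.846). miR-15b-5p, in contrast, lay below miR-16-5p by -1.59 to -1.43 in BAT (-1.49 ± 0.09), -1.45 to -0.98 in SAT (-1.16 ± 0.25) and -4.07 to -2.95 in VAT (-3.42 ± 0.58). All VAT libraries fell outside the range of the other depots (exact permutation p = 0.0107, adjusted p = 0.0179), and the adjusted p stayed at or below 0.0357 when any library was left out. The miR-15a-5p and miR-15b-5p pair differed by -2.82 ± 0.44 in BAT, -3.30 ± 0.23 in SAT and -0.87 ± 0.28 in VAT (exact permutation p = 0.0107, adjusted p = 0.0179).

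miR-195a-5p lay below miR-497-5p by -3.86 to -2.31 in BAT (-2.99 ± 0.79), -2.39 to -1.94 in SAT (-2.17 ± 0.22) and -2.32 to -1.52 in VAT (-1.87 ± 0.41), and the ranges overlapped (exact permutation p = 0.0643, adjusted p = 0.0714). The widest gap was in BAT 20, and the adjusted p was 0.198 without that library but 0.0179 without BAT 12. In the same test it was 0.0397 with the lowest value subtracted and 1 added, and 0.194 with a further 40 added. Whether this pair is called thus depends on the offset and on single libraries. The smallest possible p was reached by 3 pairs, each of a chromosome 11 member with miR-15b-5p or miR-16-5p. miR-15b-5p exceeded miR-195a-5p by 3.62 in BAT, 1.80 in SAT and 0.61 in VAT on average, and its mean difference from miR-497-5p went from 0.62 in BAT to -0.36 in SAT and -1.27 in VAT. miR-16-5p exceeded miR-195a-5p by 5.11 in BAT, 2.96 in SAT and 4.03 in VAT (adjusted p = 0.0119 by the exact permutation test for each of the 3 pairs).

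**Figure D4:**
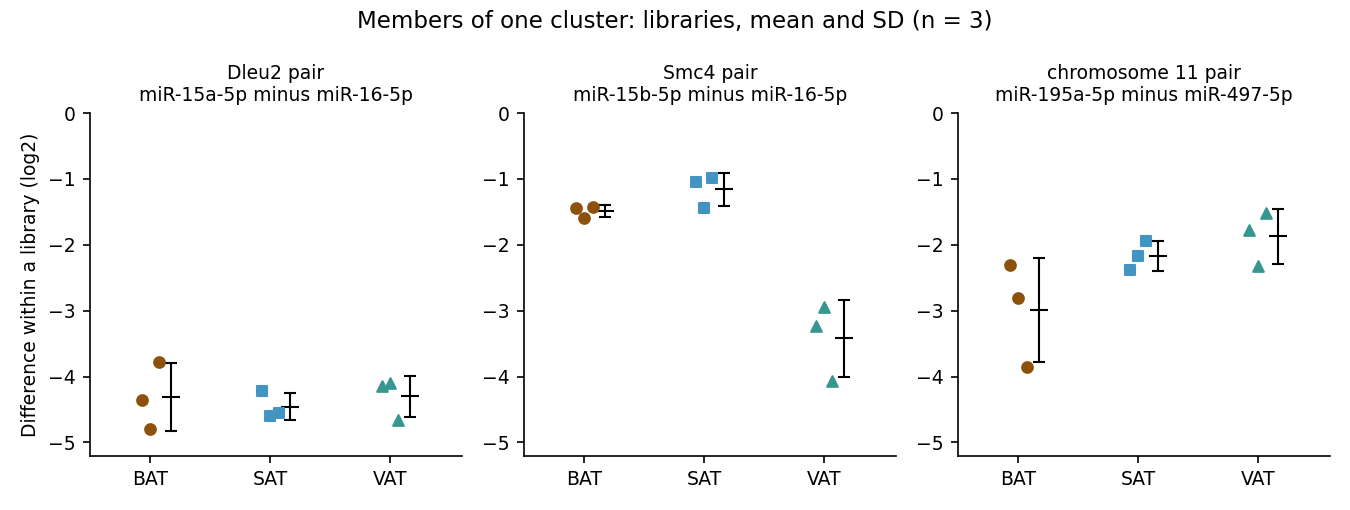
Difference of the log2 values of 2 members of a cluster within each library (points) with the mean and SD of the 3 libraries per depot. The miR-15a-5p minus miR-16-5p difference stays between -4.80 and -3.77, the miR-15b-5p minus miR-16-5p difference drops to between -4.07 and -2.95 in VAT only, and the miR-195a-5p minus miR-497-5p difference overlaps between depots.

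Each precursor also yields a 3p arm, which is usually degraded. Of the 6 3p arms in the table, 4 were at the lowest value in all 9 libraries, namely miR-15a-3p, miR-16-1-3p, miR-16-2-3p and miR-497-3p. The other 3p arms, whose seeds (capitals) differ from that of the family, are shown because they allow the arms of a precursor to be compared.
miR-15b-3p: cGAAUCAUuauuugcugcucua
miR-195a-3p: cCAAUAUUggcugugcugcucc
miR-15b-3p was at the lowest value in all BAT libraries and in SAT 19 and SAT 20, at 4.13 in SAT 14, and at 5.24, 4.91 and 4.92 in VAT. It passed the filter on low values only through VAT, where it is high, so p values of its depot comparisons are not given. VAT differed from BAT by 1.70 on the log2 scale, measured from the lowest value of the table. The difference from SAT was 1.43, while SAT/BAT gave 0.27. The 3p arm had its highest values in VAT and the 5p arm in SAT. The 5p arm exceeded the 3p arm by 5.31 to 5.83 in VAT and by at least 6.46 to 7.48 in BAT. In SAT the excess was 7.09 to 8.88, where the values of SAT 19 and SAT 20 are also lower bounds. The exact permutation test gave p = 0.0107 (adjusted p = 0.0214 over the 2 precursors tested). Because the 3p arm entered the tests through VAT and was at the lowest value in BAT, this p value is no support for a depot difference.

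miR-195a-3p barely differed between depots where its 5p partner changed most. It was at 6.89, 6.27 and 5.57 in BAT (6.24 ± 0.66), at 6.93, 6.52 and 5.77 in SAT (6.41 ± 0.58) and at 7.11, 6.35 and 6.71 in VAT (6.72 ± 0.38), and all depots overlapped. The VAT/BAT log2 fold change was 0.48 (interval -0.49 to 1.46, adjusted p = 0.316), that of SAT/BAT 0.16 (interval -1.06 to 1.39, adjusted p = 0.826) and that of VAT/SAT 0.32 (interval -0.63 to 1.27, adjusted p = 0.589), so changes of more than 1 on the log2 scale in either WAT against BAT stay within the intervals. The 5p arm exceeded the 3p arm by 0.48 ± 0.74 in BAT, 3.41 ± 0.75 in SAT and 3.23 ± 0.33 in VAT, and the BAT range, 0 to 1.33, did not meet the WAT range, 2.76 to 4.23 (exact permutation p = 0.0286, adjusted p = 0.0286).

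**Figure D5:**
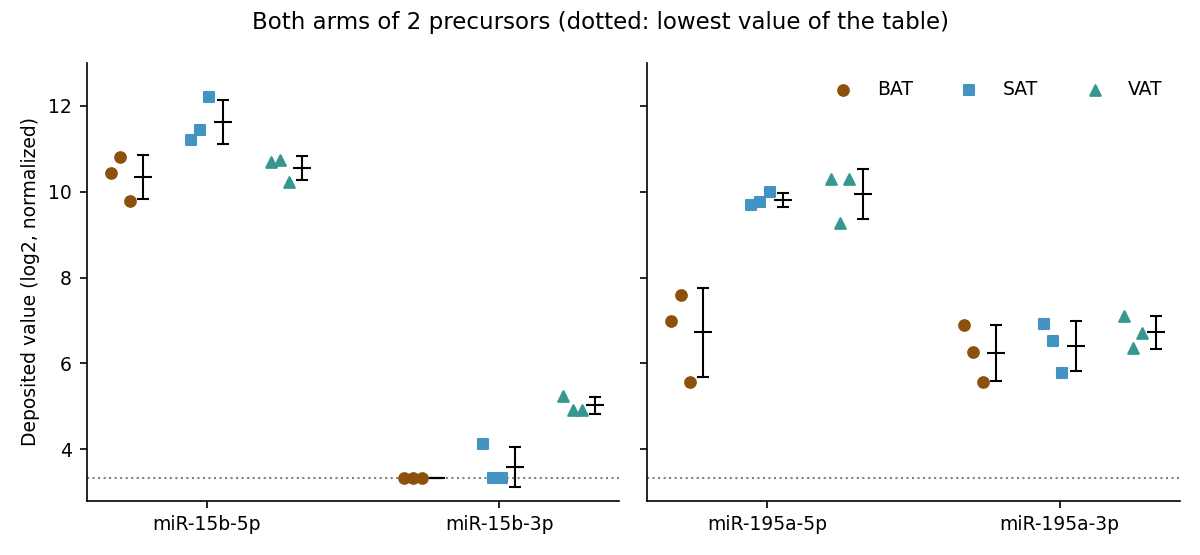
Deposited log2 values of the 5p and 3p arms of miR-15b and miR-195a in each library, with the mean and SD of the 3 libraries per depot; the dotted line is the lowest value of the table. miR-15b-3p is above the lowest value in all VAT libraries and SAT 14, and miR-195a-3p lies between 5.57 and 7.11 in all depots while miR-195a-5p is lowest in BAT.

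Relatives outside the named members share all or most of the seed. Of 6 such rows, miR-195b, miR-503-5p, miR-6342, miR-6353 and miR-6419 were at the lowest value in all libraries, and only miR-322-5p, the mouse form of miR-424, had a signal. Its sequence is given with that of miR-503-5p, its neighbour 200 bases away on chromosome X, whose last seed base differs.
miR-322-5p: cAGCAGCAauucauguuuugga
miR-503-5p: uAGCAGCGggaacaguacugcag
miR-322-5p was at 8.77, 8.96 and 7.94 in BAT (8.56 ± 0.54), at 10.82, 10.54 and 10.87 in SAT (10.75 ± 0.18) and at 10.99, 10.53 and 10.93 in VAT (10.81 ± 0.25). As with the chromosome 11 pair, every WAT library lay above every BAT library and the WATs overlapped. It gave a VAT/BAT log2 fold change of 2.26 (SE 0.34, adjusted p = 0.00170), against 2.19 for SAT/BAT (SE 0.31, adjusted p = 0.00544) and 0.07 for VAT/SAT (adjusted p = 0.835).

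Finally, the tested miRNAs most like each member were listed by the mean absolute difference between log2 values over the 9 libraries, after each miRNA was centred on its own mean. The 9 points share their libraries, and these values are descriptions. miR-15a-5p and miR-16-5p were the closest pair of members (0.263), followed by miR-195a-5p and miR-497-5p (0.448), and miR-15b-5p was 0.772 or more from every other member. Outside the family, miR-22-3p (0.207), miR-451a (0.286) and miR-10a-3p (0.289) were nearest to miR-15a-5p. Of these, miR-22-3p held the highest value of the table, 18.67, in all VAT libraries. miR-10a-3p was at the lowest value in all BAT libraries, at 3.32, 3.32 and 4.96 in SAT and at 5.33, 4.91 and 5.22 in VAT. Its distance from miR-15a-5p thus depends in part on the lowest value. miR-99a-5p (0.231), miR-451a (0.284) and miR-24-3p (0.326) were nearest to miR-16-5p. For miR-15b-5p they were miR-145a-5p, an abundant smooth muscle miRNA (0.280), miR-25-3p (0.325) and miR-615-3p (0.331).

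miR-451a, a red cell miRNA, stood at 9.23, 9.71 and 8.82 in the BAT libraries, at 9.95, 10.38 and 9.93 in those of SAT and at 11.18, 11.81 and 11.41 in those of VAT, an order without overlap that matches that of miR-15a-5p. It gave 2.21 for VAT/BAT on the log2 scale (SE 0.32, adjusted p = 0.00151), 0.83 for SAT/BAT (adjusted p = 0.0717) and 1.38 for VAT/SAT (SE 0.22, adjusted p = 0.0276). The 3 red cell miRNAs together summed to 17.68 in every BAT library, 14.86 to 15.28 in SAT and 14.95 to 15.87 in VAT, the reverse order for BAT, with miR-144-3p at the lowest value in all libraries and miR-486-5p, which muscle also expresses, leading the sum. The part of red cells in the values of miR-15a-5p and miR-16-5p was not tested.

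miR-34c-5p (0.264), miR-26b-5p (0.328) and miR-10b-5p (0.334) were nearest to miR-195a-5p. In BAT, miR-34c-5p was close to or at the lowest value (4.57, 4.51 and 3.32). Nearest to miR-497-5p were miR-125b-2-3p (0.200), miR-322-5p (0.231) and miR-126-3p (0.238). miR-126-3p is an endothelial miRNA, and the sum of both endothelial miRNAs was 11.53 to 12.23 in BAT, 13.28 to 13.61 in SAT and 13.54 to 13.64 in VAT, with neither at the lowest value in any depot. For miR-126-3p itself, VAT exceeded BAT by 1.98 (log2, adjusted p = 0.00376) and SAT exceeded BAT by 1.96 (adjusted p = 0.0138). The other endothelial miRNA, miR-126-5p, changed less in limma, by 1.10 in VAT/BAT (adjusted p = 0.0134) and 0.73 in SAT/BAT (adjusted p = 0.0418). The part of endothelial cells in the values of miR-497-5p and miR-195a-5p was not tested. In whole tissue, fewer cells of a type and less of a miRNA per cell cannot be told apart. miR-191-5p, the reference miRNA of the qPCR in the study, was at 15.92 ± 0.32 in BAT, 16.09 ± 0.26 in SAT and 15.92 ± 0.32 in VAT.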

How the data were processed

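Small RNA reads were mapped by the authors to miRBase precursors and reads on mature miRNAs were kept, with reads that matched several places shared in proportion. The authors scaled the counts by the usable reads of a library with an offset of 40 counts, and the submitters' processing notes name mm10. The aligner is not given in the sources used here. The deposited values are log2 values, and their agreement at equal ranks (within 0.05 at 80 of the top 100 ranks) is as quantile normalization leaves them. Their lowest value is 10 before log2, and how it relates to the stated offset of 40 counts is not given in the sources used here. The table holds no read counts, so depth is unknown and the spread of the 3 libraries per depot is the measure of precision.

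Values were used as deposited. Of 1251 miRNAs, 343 were tested, those that exceeded the lowest value in 3 or more of the 9 libraries. Each comparison was fitted on its 6 libraries with limma 3.58.1 in R 4.3.3, two-sided, with Benjamini-Hochberg adjustment over all 343 and a threshold of 0.05. The study names an unmoderated test, which was run as an alternative. Differences between members and between arms were tested by exact permutation in Python 3.11.15. The tests were checked on simulated data. Sequences came from RefSeq, where 1003 of the 1251 names matched. Other miRNAs named are the 3p arms, the seed relatives, the 3 nearest to each member, the marker lists and miR-191-5p. The members and lists were chosen with earlier results of these data known.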

Additional observations from a re-analysis of the deposited data

How the results depend on the processing

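Of 265 values of single members under alternative settings, 237 kept their direction and their side of the threshold. In VAT/BAT, 4 members were called under every setting except without the filter, which gave 3 because miR-195a-5p was lost (adjusted p = 0.0746). In SAT/BAT the count was 2 to 3 when a library was left out, 1 without the filter, 2 with the replicate block by order in the source name (miR-15a-5p lost, adjusted p = 0.0762) and 4 among the miRNAs with the higher mean, with a common median, with quantile normalization and with all 9 libraries in one fit. The adjusted p over all settings ran from 0.0165 to 0.144 for miR-15a-5p, 0.0181 to 0.316 for miR-15b-5p, and 0.0636 to 0.386 for miR-16-5p. Fits chosen after seeing the data left out the 3 libraries rich in muscle miRNAs, or SAT 14 and SAT 20, and 2 members passed in SAT/BAT in either. They leave BAT 12 or SAT 19 as the only library of its depot, assumed to vary like the other depots in a fit that pools the spread. In VAT/SAT the count was 0 to 1 when a library was left out, 0 without the filter, relative to miR-191-5p and with the replicate block by order in the source name, and 3 among the miRNAs with the higher mean, where miR-15b-5p (adjusted p = 0.0387) and miR-16-5p (adjusted p = 0.0258) also passed. With 0 calls by limma, 2 or 3 members had an unadjusted p under 0.05. The sign of 3 log2 fold changes that had not passed the threshold turned. With a library left out, miR-15b-5p in VAT/BAT ranged from -0.062 (without BAT 20) to 0.45 and miR-195a-5p in VAT/SAT from -0.032 (without VAT 14 or VAT 20) to 0.47, and relative to miR-191-5p miR-497-5p in VAT/SAT was 0.017. The number of member pairs whose difference varied with depot was 6 to 9 of 10.

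Over all miRNAs, calls in VAT/BAT numbered 227, and 128 without the filter, 120 among those with the higher mean and 187 to 236 when a library was left out. In SAT/BAT they numbered 139, 74 without the filter and no fewer than 112 with a library left out. In VAT/SAT the 55 calls became 4 without the filter, 2 relative to miR-191-5p, 30 with all 9 libraries in one fit, 13 without moderation and 0 to 49 when a library was left out (0 without SAT 19, where limma gave 104 at an unadjusted p under 0.05, 5 without VAT 20, 12 without SAT 20 and 23 without VAT 14). The pooled fit without SAT 14 and SAT 20, in which SAT 19 stands alone, gave 28. The replicate block by order gave 0 calls in VAT/SAT (105 at an unadjusted p under 0.05 in limma). The cause was not tested. Values relative to miR-191-5p shift by what it differs itself, 0.17 in SAT/BAT and -0.17 in VAT/SAT, and in VAT/SAT 29 of the 55 calls, but 2 of the 2 relative to it, were higher in VAT. Deviations of libraries with the same title number correlated by -0.14 to 0.27 over 4 pairs. Those with different numbers correlated by -0.48 to 0.36 over 23 pairs. Deviations from a mean of 3 libraries cannot settle whether the title number pairs samples. Pairing stays unknown, and the title number was not used to pair samples in the main fits. A block by that number left 55 calls and 1 member in VAT/SAT, and it could not be fitted in VAT/BAT and SAT/BAT, which share only the number 20. With depth unknown, a miRNA at the lowest value cannot be called absent.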
